A study of Sus scrofa with 8 samples.

Results

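Protocadherin genes were taken from the RefSeq annotation of the pig assembly Sscrofa11.1 as the genes whose symbol starts with PCDH or whose description or transcript product names a protocadherin. There were 49 such genes among the 28077 annotated genes on chromosomes 1 to 18 and X, and 36 of the 49 carried the name only in their transcript product. A gene was placed in a cluster when another member lay within 50 kb of it, which put 39 genes in 4 clusters and left 10 single genes. The marks at these genes were read from 6 ChIP-seq peak lists of untreated pig embryonic fibroblasts (PEFs), with 2 replicates each of H3K4me3, a mark of promoters, of H3K27ac, a mark of active promoters and enhancers, and of CTCF, the zinc-finger protein that anchors chromatin loops. The cells came from fetuses of Large White pigs at day 35 of gestation and had been in culture for 24 h. All 6 libraries came from this one untreated cell type, so the comparisons are between genes and regions and not between conditions, and no test was run.

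Protocadherins are the largest group of cadherins, transmembrane proteins that hold cells together and let neighbouring cells recognise each other. The clustered alpha, beta and gamma genes are best known from neurons, where each cell uses a small choice of the many first exons, each with a promoter of its own, and so gains a surface identity. In mouse and human neurons, CTCF and cohesin bring a chosen promoter to a distant enhancer, and the CTCF sites of the promoters point towards it. The other protocadherins mostly stand alone in the genome and are used in the brain and in many other developing tissues.

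The values below are fold enrichments over control, as given by the peak caller for the strongest peak within 1 kb of a position, and a peak was counted when its interval came within that distance in both replicates. Over all genes with a peak at the start in both replicates, the median fold enrichment was 51.2 in replicate 1 and 24.97 in replicate 2 for H3K4me3, 16.2 and 19.1 for H3K27ac, and 18.1 and 22.0 for CTCF, so levels can be compared within a library and not between the replicates of H3K4me3. The fibroblast identity was checked on marker genes. All 10 fibroblast markers had both histone marks at the start in both replicates. Of the 5 neuronal markers, 4 had H3K4me3 and 1 (SNAP25) had H3K27ac, and of the 3 epithelial markers 3 had H3K4me3 and none had H3K27ac. The 3 endothelial markers had neither mark, and of the 3 blood markers only SPI1 had H3K27ac and none had H3K4me3. Both muscle markers had H3K4me3, and DES had weak H3K27ac. What part other cells have in the values below was not tested.

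Of the 10 single genes, 9 had H3K4me3 at the gene start in both replicates, where 55.4% of all annotated genes did. H3K27ac was present at 5 of the 10, against 50.1% of all genes, and CTCF at 2, against 15.2%. By their marks, 5 single genes had both histone marks, 3 had H3K4me3 and no H3K27ac, PCDH11X had H3K4me3 with H3K27ac in replicate 2 alone, and beta-1 had no peak.

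PCDH7, PCDH9, PCDH17 and PCDH18, members of the delta protocadherins that act in cell sorting and axon growth, carried H3K4me3 with the highest H3K27ac of the single genes. Their H3K4me3 ranked above 44.2% to 71.9% of marked gene starts in replicate 1 and above 67.5% to 93.0% in replicate 2. At PCDH7 on chromosome 8 H3K4me3 reached 61.8 in replicate 1 and 29.3 in replicate 2, and H3K27ac reached 20.7 and 25.6. PCDH17 on chromosome 11 had H3K4me3 at 55.7 and 37.9 and H3K27ac at 22.9 and 25.03. These histone summits of PCDH17 lay 4354 to 5790 bp after the gene start. PCDH9, a gene of 933 kb on chromosome 11, had H3K4me3 at 53.6 and 38.5 and H3K27ac at 21.7 and 26.0. The H3K27ac levels of these 3 genes ranked above 67.2% to 74.2% of marked gene starts. PCDH18 on chromosome 8 had H3K4me3 at 48.1 and 34.9 and H3K27ac at 21.1 and 20.02. Its H3K27ac ranked above 68.7% and 53.1% of marked gene starts. CTCF stood inside the first part of both PCDH17 and PCDH18, at 27.4 and 37.4 some 1094 and 1077 bp after the start codon of PCDH17, and at 11.6 and 15.3 some 812 and 817 bp after that of PCDH18. The peaks were wide at 3 of these genes. H3K4me3 covered 14938 and 16496 bp at PCDH17, 12527 and 12778 bp at PCDH7 and 9477 and 11177 bp at PCDH18, where the median width at marked gene starts was 2724 bp in replicate 1 and 2891 bp in replicate 2. H3K27ac covered 13813 and 13676 bp at PCDH17 and 12119 and 11607 bp at PCDH18. Counting every summit between the ends of the gene, PCDH9 held 36 and 39 H3K27ac summits (38.6 and 41.8 per Mb), PCDH7 held 18 and 16 (43.6 and 38.8 per Mb) and PCDH17 held 17 and 20 (168.4 and 198.1 per Mb), where chromosomes 1 to 18 and X had 31.1 and 33.7 per Mb. PCDH9 and PCDH7 were thus close to the chromosome rate.

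PCDH10, PCDH20 and protocadherin-8 (LOC100155738) had H3K4me3 and no H3K27ac peak within 1 kb in either replicate, a combination found at 6.89% of all annotated genes. PCDH10, a delta protocadherin known from axon guidance in the forebrain, had H3K4me3 at 42.5 and 30.2, and PCDH20 had 46.8 and 29.6. Protocadherin-8, whose relative in frog embryos drives cell movements at gastrulation, was lower at 28.8 and 14.1. The start of PCDH10 lies 398 bp from that of a long non-coding RNA on the opposite strand, so its H3K4me3 cannot be assigned to either alone.

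The X-linked genes had H3K4me3 in the lower part of the range of marked genes, above 16.2% to 25.6% of them. Protocadherin-8 on chromosome 11 was at a like level, above 18.4% and 16.3%. PCDH19, the gene altered in a female-limited epilepsy in humans, had H3K4me3 at 27.7 and 14.0 and H3K27ac at 3.35 and 5.09. PCDH11X had H3K4me3 at 29.2 and 18.2, and H3K27ac in replicate 2 alone, at 3.11. Protocadherin beta-1 (LOC100521438) had no peak of any kind at its start in the 6 libraries. CTCF was found at the starts of PCDH7 (16.9 and 27.5) and protocadherin-8 (4.58 and 6.2). The latter was weak, and it was lost when only peaks with a −log10 q of at least 5 were kept.

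**Figure D1:**
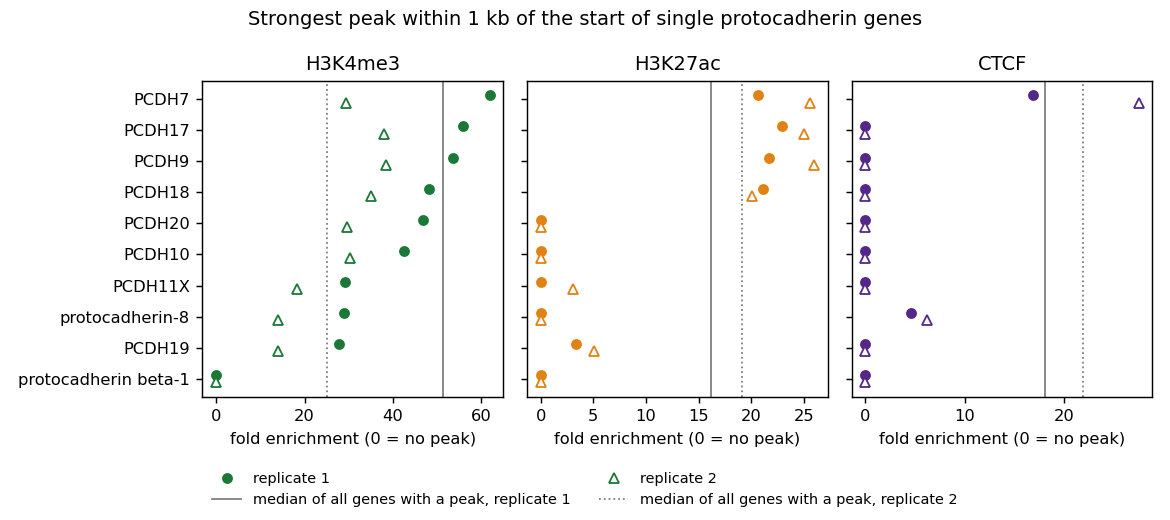
Fold enrichment (x axis, a ratio over control) of the strongest H3K4me3, H3K27ac and CTCF peak within 1 kb of the start of each of the 10 single protocadherin genes, in replicate 1 (filled circles) and replicate 2 (open triangles), with 0 for no peak and grey lines at the median of all genes with a peak in both replicates. H3K4me3 is present at 9 of the genes, and H3K27ac is above the median of marked genes at PCDH7, PCDH9, PCDH17 and PCDH18 only.

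At the annotated gene start the clustered genes had few histone marks and more CTCF than other genes. H3K4me3 lay within 1 kb of the start at 12 of 39 genes in both replicates (30.8%, against 55.4% of all genes), H3K27ac at 5 (12.8%, against 50.1%) and CTCF at 17 (43.6%, against 15.2%), and 21 of the 39 had no peak in any library. None of the 8 alpha genes had H3K4me3 or H3K27ac there, and CTCF was at protocadherin alpha-1 (LOC100621895) alone, at 10.5 and 13.7. Of the 16 gamma genes, 10 had H3K4me3 and 11 had CTCF.

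The annotated starts were often far from the start codons. In the alpha, beta and gamma genes the start codon lies a median of 1916 bp after the annotated transcript start, and for 27 of 39 start codons the distance is over 1 kb. Peaks were therefore also set against the start codon, a choice made after the positions of the peaks had been seen. The 36 alpha, beta and gamma genes, beta-1 included, have 39 annotated start codons, since the gene labelled alpha-C2 (LOC100621701) has 4 first coding exons.

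At the start codons CTCF was common, above all in the gamma genes. CTCF lay within 1 kb in both replicates at 32 of 39 start codons (82.1%), against 15.1% of protein-coding genes. H3K4me3 was there at 29 (74.4%), against 57.5%, and H3K27ac at 5 (12.8%), against 51.6%. Both CTCF and H3K4me3, with no H3K27ac in either replicate, were found at 21 start codons (53.9%), against 1.33% of protein-coding genes. The shares of protein-coding genes were taken at the most upstream start codon of each gene, while every annotated start codon of the alpha, beta and gamma genes was counted. By family, CTCF was at 9 of 11 alpha, 7 of 12 beta and 16 of 16 gamma start codons, and H3K4me3 at 8, 6 and 15. The start codons of gamma-A2-like (LOC110259519) and gamma-A6-like (LOC110259668) lie within 1 kb of the same peaks and are not independent.

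The summits mostly kept one order. Where CTCF was present in both replicates, the median position of its summit from the start codon was -250.5 bp in replicate 1 and -237.5 bp in replicate 2, with upstream negative. It was between 100 and 400 bp upstream at 29 and 28 of the 32 start codons. The same range held 24.6% and 25.03% of the other protein-coding genes with CTCF near their most upstream start codon. The range was not fixed in advance and encloses the medians, so these shares describe the summits and test nothing. In 23 of the 32 the summit fell in an exon annotated as 5′ UTR, in 7 upstream of the annotated transcript, and in 2 in coding sequence. With each replicate taken alone, 28 start codons had both CTCF and H3K4me3, with gamma-A6-like left out, and these sets differ in part between the replicates. The H3K4me3 summit lay downstream of the CTCF summit at 26 of 28 in replicate 1 and 27 of 28 in replicate 2, at median distances of 280.5 and 273 bp. Neither this order nor the annotation of the summits was counted at other genes, so neither can be called particular to these start codons.

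**Figure D2:**
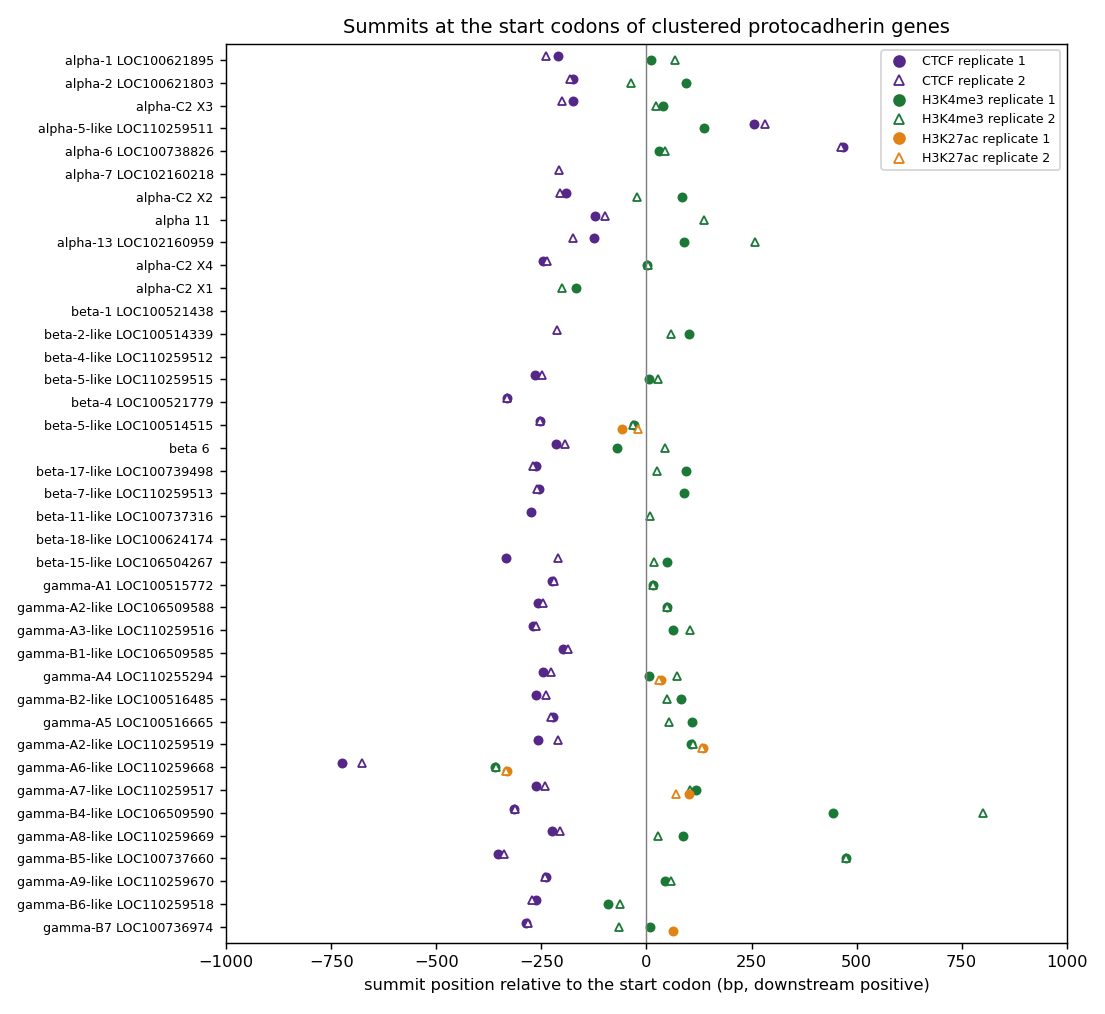
Positions of the strongest CTCF, H3K4me3 and H3K27ac summits within reach of each alpha, beta and gamma start codon (rows, in chromosome order), in bp from the start codon, with downstream positive. Filled circles are replicate 1 and open triangles replicate 2, and most CTCF summits form a column with medians of -250.5 and -237.5 bp, with H3K4me3 close to the start codon and H3K27ac in 6 rows.

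Levels differed between families. The median fold enrichment of CTCF at start codons bound in both replicates was 13.4 and 13.7 for alpha, 14.0 and 12.9 for beta and 19.6 and 18.8 for gamma. That of H3K4me3 was 7.06 and 6.48 for alpha, 7.52 and 6.01 for beta and 13.5 and 10.7 for gamma. Even the stronger gamma starts were low among all marked genes. Gamma-A4 (LOC110255294), at 22.3 and 12.5, ranked above 13.3% and 13.5% of gene starts with H3K4me3. Gamma-A7-like (LOC110259517) had 24.0 and 16.3 for H3K4me3, the top value among gamma start codons. Gamma-A9-like (LOC110259670) was much lower at 7.63 and 4.97.

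Among the gamma genes CTCF was strongest at gamma-B7 (LOC100736974, the last gamma gene), at 40.2 and 38.9, at gamma-A5 (LOC100516665), at 36.7 and 25.9, and at gamma-A2-like (LOC110259519), at 29.1 and 35.1. Among the beta genes the 2 called beta-5-like led, with 30.3 and 26.2 at LOC110259515 and 24.4 and 38.5 at LOC100514515. Among the alpha genes alpha-2 (LOC100621803) had 21.5 and 18.7, and alpha-6 (LOC100738826) had 20.2 and 23.2. The start codons with more CTCF also had more H3K4me3, with a rank correlation (Spearman) of 0.582 and 0.606 and a Pearson's r of 0.646 and 0.592 in replicates 1 and 2. Each was taken across the 28 start codons with both peaks in that replicate, with gamma-A6-like left out. This is a description across neighbouring, related promoters of one locus, which are not independent.

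The other gamma genes named by the rule had lower CTCF. Gamma-A3-like (LOC110259516) had H3K4me3 at 13.5 and 11.5 and CTCF at 16.2 and 15.3. Gamma-B2-like (LOC100516485) had 12.8 and 10.03 for H3K4me3 and 16.5 and 15.3 for CTCF. Gamma-A8-like (LOC110259669) had 9.94 and 8.63 for H3K4me3 and 12.8 and 15.0 for CTCF. All 3 lacked H3K27ac. The first gene of the beta-gamma cluster, beta-2-like (LOC100514339), had H3K4me3 at 5.28 and 3.22 and CTCF in replicate 2 alone, at 9.50, and the last beta gene, beta-15-like (LOC106504267), had H3K4me3 at 7.40 and 4.61 and CTCF at 8.15 and 11.4.

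CTCF and H3K4me3 were not both present in both replicates at 12 of the 39 start codons, 4 alpha, 7 beta and 1 gamma. One of the 4 start codons of the alpha-C2 gene (variant X1) had the highest H3K4me3 of the alpha family, 25.7 and 12.8, and no CTCF. Gamma-B1-like (LOC106509585) had CTCF at 7.16 and 9.29 and no H3K4me3. H3K4me3 was in 1 replicate alone beside CTCF at alpha-5-like (LOC110259511), PCDHA11 and beta-7-like (LOC110259513). Alpha-7 (LOC102160218) had only CTCF in replicate 2, at 4.05, and beta-11-like (LOC100737316) had CTCF in replicate 1 and H3K4me3 in replicate 2. Beta-1, beta-4-like (LOC110259512) and beta-18-like (LOC100624174) had no peak at the start codon in any library. Reads that match more than 1 place were removed by the authors, and their part in these absences was not tested. Within 1 kb of the start codon of beta-4-like, 43.4% of all 100-base stretches occur again in the same locus, the same share as at beta-4 (LOC100521779), where CTCF was at 8.73 and 12.3 and H3K4me3 was not called. At beta-18-like and beta-1 no such stretch was repeated in the locus. Across the 39 start codons the share ranged from 0 to 43.4%.

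H3K27ac was absent or weak at these start codons. No H3K27ac summit lay in the alpha cluster in either replicate, although 13 and 14 H3K4me3 summits did. At beta and gamma start codons with H3K27ac in both replicates, the fold enrichment was between 3.98 and 4.94 in replicate 1 and between 4.31 and 7.65 in replicate 2, where the median of all marked gene starts was 16.2 and 19.1. These were the beta-5-like gene LOC100514515 (4.94 and 7.65), gamma-A4 (3.98 and 4.31), gamma-A7-like (4.47 and 5.26), and gamma-A2-like and gamma-A6-like, which share a peak of 4.36 and 6.29. Gamma-B7 had H3K27ac in replicate 1 alone, at 3.95.

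One strong site in the beta-gamma cluster lies at the annotated starts of gamma-A1 and TAF7, so its marks cannot be assigned to either alone. The annotated start of gamma-A1 (LOC100515772) had H3K4me3 at 53.0 and 31.7, H3K27ac at 40.02 and 38.1, and CTCF at 49.8 and 56.2. It lies 64 bp from the start of TAF7, which is read in the opposite direction and encodes a subunit of the general transcription factor TFIID, and 13333 bp before the start codon of gamma-A1. At that start codon H3K4me3 was 10.7 and 8.88, CTCF was 19.8 and 15.5, and H3K27ac was not called.

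The sequence under these CTCF peaks was searched next. The core of the known CTCF motif (CC, any 3 bases, AG, any 2 bases, GGC) was searched on both strands within 100 bp of each summit. It was found in 39.1% and 37.3% of all CTCF peaks in replicates 1 and 2, in 30.8% and 28.6% of those in the alpha cluster, and in 1 of 32 in the beta-gamma cluster (3.12%) in each replicate. A weight matrix built from core matches outside the clusters, at a chance of 0.0001 per position, was met by 77.5% and 75.6% of all CTCF peaks and by 4 and 3 of the 32 (12.5% and 9.38%).

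Most alpha, beta and gamma start codons have a short element upstream, which was found by reading these sequences. The box GNCGCTG was searched on the gene's strand 100 to 400 bp upstream of the start codon. It was there at 33 of 39 alpha, beta and gamma start codons (84.6%) and at 4 of the 13 start codons of other protocadherin genes. Of the protein-coding genes outside the members, 11.5% had it at their most upstream start codon. By family, 7 of 11 alpha, 11 of 12 beta and 15 of 16 gamma start codons had it. The letters differed in part by family. All 11 beta boxes read GGCGCTG. Of the gamma boxes 8 read GCCGCTG and 7 GTCGCTG. Of the 7 alpha boxes 5 read GTCGCTG, as in gamma genes, and 1 read GGCGCTG, as in beta genes. The box can overlap the core, as at alpha-C2 variant X4, where a core match ends in the GGC that opens the box. A match to the weight matrix overlapped the box at 2 of the 33 start codons. Whether the box is a part of the CTCF motif was not tested.

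To show the element, the 3 start codons of each family with the highest mean CTCF level and a box within 50 bp of the summit in both replicates are given below as 30 bases on the plus strand of chromosome 2, 5′ to 3′, with the box in capitals.
alpha-2, chr2:142472401-142472430: tggccacatggtGTCGCTGtctaccacagt
alpha-C2 variant X3, chr2:142479823-142479852: tagccacatgatGTCGCTGtccaccgcgag
alpha-C2 variant X4, chr2:142578419-142578448: gctcccctaggcGGCGCTGcgctcctccgc
beta-5-like (LOC100514515), chr2:142855694-142855723: aggacgcctggtGGCGCTGcaggccaggag
beta-5-like (LOC110259515), chr2:142830254-142830283: aggacgcctggtGGCGCTGcaggctaggag
beta-17-like, chr2:142874824-142874853: agaacgcttggtGGCGCTGcaggctaagag
gamma-B7, chr2:143054623-143054652: gagcctctgggcGCCGCTGtcggccagtgc
gamma-A2-like (LOC110259519), chr2:143013737-143013766: aggactctaagcGTCGCTGttcaccaaccc
gamma-A5, chr2:143002778-143002807: aggactctgagcGTCGCTGttcaccaaagt

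The 3 beta lines are alike well beyond the box, as are alpha-2 and alpha-C2 variant X3, and gamma-A2-like and gamma-A5. Alpha-C2 variant X4 holds a match to the weight matrix over its box.

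The box mostly lay at the CTCF summit. Its centre was within 50 bp of the summit at 22 of the 29 start codons with a box and CTCF in replicate 1 and at 24 of 29 in replicate 2. The medians of the signed distance from summit to box centre, downstream positive, were 14 and 9 bp. Where there were 2 boxes, the box nearest the summit was taken. Searched on both strands within 100 bp of every CTCF summit, it was in 27 and 29 of the 32 CTCF peaks of the beta-gamma cluster (84.4% and 90.6%) and in 7 of 13 and 7 of 14 in the alpha cluster. Of all CTCF peaks, 13.1% and 13.0% held it. Where a peak of either cluster held it on 1 strand only, that was the plus strand, the strand of all alpha, beta and gamma genes. Because the box was chosen from these sequences, these shares describe them and test nothing.

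**Figure D3:**
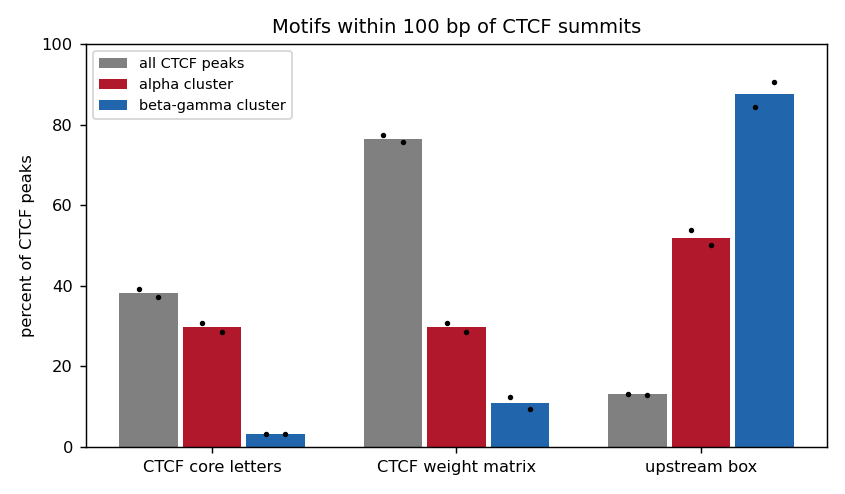
Percent of CTCF peaks (y axis) with the core letters, the weight matrix or the upstream box within 100 bp of the summit, for all CTCF peaks (grey), the alpha cluster (red) and the beta-gamma cluster (blue). Bars are the mean of 2 replicates and points the replicates, and the beta-gamma cluster is at 3.12% for the core in both replicates and at 84.4% and 90.6% for the box.

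A further site lay inside the first coding exon at 6 of the 11 alpha start codons. In CTCF peaks at alpha start codons, 10 matches to the core lay downstream of the start codon, all in coding sequence and all on the plus strand. They were 462 bp after the start codon at 5 start codons, 110 bp after it at 4 of those, and 267 bp after it at alpha-5-like (LOC110259511), which also has the motif 84 bp before its annotated start codon. Beta and gamma start codons had no core match downstream of the start codon in a CTCF peak. The share of other protein-coding genes with such a match was not computed. At alpha-6 and alpha-5-like the CTCF summit itself lay at this second site, 467 and 463 bp downstream of the start codon at alpha-6 and 256 and 281 bp downstream at alpha-5-like. The second site is shown for alpha-2 and alpha-6, the alpha start codons with the most CTCF, and for alpha-5-like, with the core in capitals, plus strand, 5′ to 3′.
alpha-2, chr2:142473035-142473064: tctcggtttCCACTAGAGGGCgcctcggat
alpha-6, chr2:142502107-142502136: tctttgtttCCACTAGAGGGCgcgtcggat
alpha-5-like, chr2:142496373-142496402: tcccggtttCCGCTAGAGGGCgcatctgat

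The core letters of alpha-2 and alpha-6 are identical, and the bases around them differ in part among the 3 lines.

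CTCF summits were dense in the alpha and beta-gamma clusters and sparse at the PCDH15 pair, which had 4.66 per Mb. The beta-gamma cluster (chr2:142803760-143156556) held 32 CTCF summits in each replicate, or 90.7 per Mb, and the alpha cluster (chr2:142458727-142687684) 13 and 14, or 59.0 ± 3.09 per Mb (SD, n = 2). Chromosomes 1 to 18 and X had 17.6 ± 1.29 per Mb. H3K4me3 summits were at 89.3 ± 2.00 per Mb in the beta-gamma cluster and 59.0 ± 3.09 in the alpha cluster, against 16.8 ± 1.65 over these chromosomes. The 200 kb upstream of the alpha cluster had H3K4me3 at 52.5 ± 3.54, and the 200 kb downstream of the beta-gamma cluster at 60.0. The alpha cluster was thus like these flanks in H3K4me3. Their CTCF was lower than in either cluster, at 37.5 ± 10.6 upstream, and at 45.0 and 55.0 in replicates 1 and 2 downstream. The region between the clusters had CTCF at 8.62 and no H3K4me3. H3K27ac summits were at 42.5 per Mb in the beta-gamma cluster, with 15 in each replicate, and at 0 in the alpha cluster, against 32.4 ± 1.80.

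Over all 4 clusters together the densities per Mb were 34.7 ± 0.93 for H3K4me3, 15.0 ± 0.93 for H3K27ac and 34.3 ± 0.46 for CTCF. In the regions within 200 kb of their edges they were 29.9 ± 2.29, 51.4 ± 0.57 and 27.9 ± 2.86. These pooled values include both sides of the PCDH15 pair, which held no H3K4me3 summit. The clusters together had fewer H3K27ac peaks than their surroundings, a gap larger than the spread between replicates, but they were unlike each other, since PCDH1 and PCDH12 had 89.8 ± 15.9 per Mb and the PCDH15 pair had none over 857.9 kb.

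CTCF summits in the beta-gamma cluster were spaced by a median of 5.09 ± 0.01 kb (SD, n = 2), where the median over the chromosomes was 28.9 ± 1.72 kb. From the first gamma gene to the last gamma start codon the median spacing was 4.73 and 4.71 kb, with the middle of the distances between 4.51 and 5.55 kb in replicate 1 and between 4.47 and 5.45 kb in replicate 2. The beta part was looser, at 12.9 and 13.5 kb, and the alpha cluster lay between, at 7.62 and 7.43 kb. In the beta part the distances ran from 4.99 to 23.0 kb in replicate 1 and from 4.97 to 44.2 kb in replicate 2. The longest distance in replicate 2 ended at the site shared by gamma-A1 and TAF7.

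**Figure D4:**
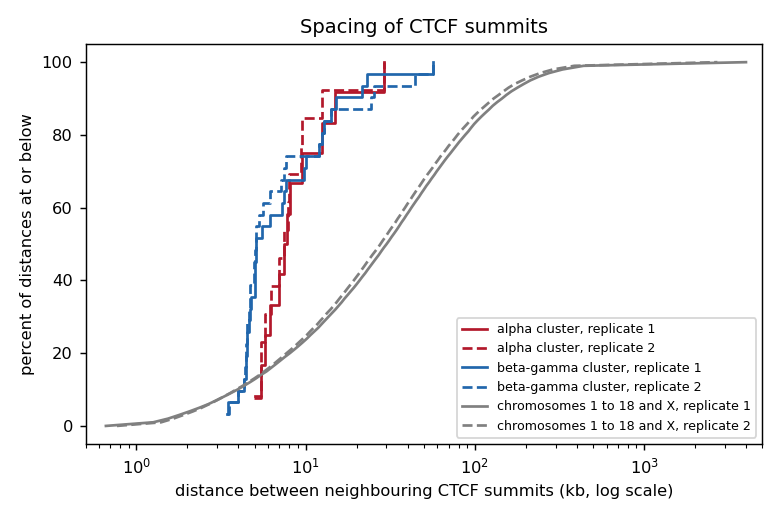
Cumulative percent of distances between neighbouring CTCF summits (y axis) at or below a distance in kb (x axis, log scale) for the alpha cluster (red), the beta-gamma cluster (blue) and chromosomes 1 to 18 and X (grey), replicate 1 solid and replicate 2 dashed. The cluster curves rise near 5 kb, and the genome curves reach their middle at 30.1 and 27.6 kb.

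CTCF and H3K4me3 went together along the clusters. In the alpha cluster 11 of 13 and 12 of 14 H3K4me3 peaks had CTCF within 1 kb of the summit (84.6% and 85.7%), and in the beta-gamma cluster 28 of 32 and 28 of 31 did (87.5% and 90.3%). Over the chromosomes 21.3% and 22.1% of H3K4me3 peaks did. The other way round, 87.5% of the CTCF peaks of the beta-gamma cluster had H3K4me3 in each replicate, against 24.3% and 26.3%. H3K27ac lay within 1 kb of no alpha H3K4me3 summit and of 40.6% and 38.7% of those in the beta-gamma cluster, against 75.4% and 76.1%.

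**Figure D5:**
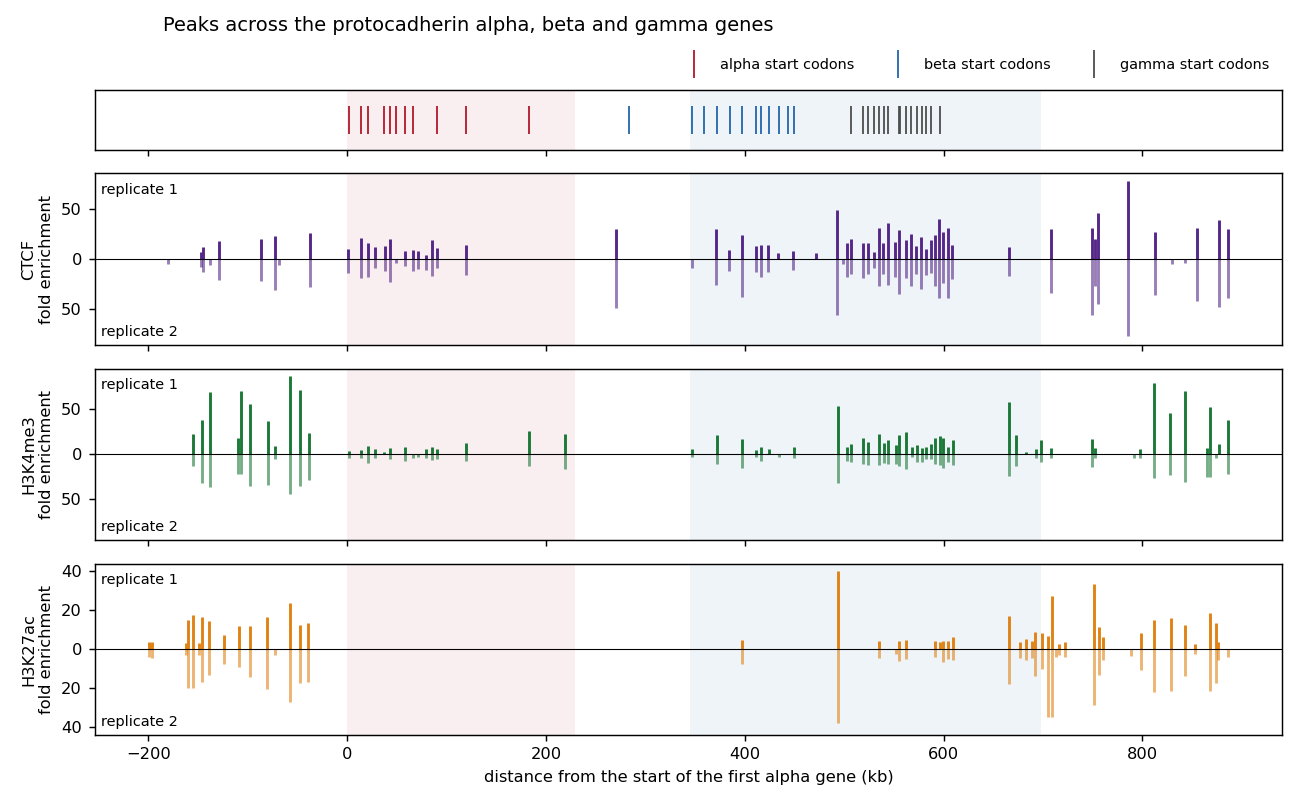
Fold enrichment of CTCF, H3K4me3 and H3K27ac peaks (y axes, replicate 1 upwards and replicate 2 downwards, overlapping peaks drawn at the replicate 1 summit) by distance in kb from the start of the first alpha gene, with the alpha cluster shaded red, the beta-gamma cluster blue and start codons as ticks. H3K27ac is absent between the flank upstream of the alpha genes and 397 kb, where the beta-5-like gene LOC100514515 lies, and CTCF and H3K4me3 stand together at most start codons.

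Several sites in the clusters stood away from annotated start codons. Of the CTCF sites found in both replicates, 4 of 13 in the alpha cluster and 7 of 22 in the gamma part were over 1 kb from any alpha, beta or gamma start codon, and 3 and 7 of these had H3K4me3 within 1 kb in both replicates. After the last annotated gamma start codon, CTCF and H3K4me3 stood together 3142, 8237 and 12572 bp further on, with CTCF at 27.6 and 24.5, at 31.5 and 39.0 and at 14.1 and 20.5. H3K27ac at these 3 sites was between 4.15 and 6.51.

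The far end of the cluster looked different. Within LOC100736974, at chr2:143123494-143129408, an H3K4me3 peak of 5915 bp reached 58.0 and 24.5, with H3K27ac at 17.2 and 17.9 and CTCF at 12.6 and 16.7. The annotation gives no protocadherin start codon there. Further on, 4 sites with H3K27ac had no CTCF within 1 kb, and the strongest of them had H3K27ac at 8.70 and 13.9 at chr2:143149646-143152531. In the alpha cluster the final site, at chr2:142677093-142678606, had H3K4me3 at 22.1 and 16.3 with neither CTCF nor H3K27ac.

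Between the alpha and the beta-gamma cluster lay a region of 116.1 kb with beta-1 and a single CTCF site, at 30.3 and 49.7, and no H3K4me3 or H3K27ac peak. Its core is on the minus strand, against the direction of the genes.
chr2:142729600-142729629, minus strand: ccttatccaCCACCAGGTGGCagatggatc

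The capitals mark the core. In the 200 kb upstream of the alpha cluster, 4 of the 6 CTCF sites found in both replicates matched the weight matrix, all best on the minus strand. In the 200 kb downstream of the beta-gamma cluster, 5 of the 9 matched best on the plus and 3 on the minus strand. The first 2 of these sites, 30.4 and 34.0 at summit 143167069 and 31.4 and 56.2 at summit 143208134, both matched best on the minus strand and had H3K27ac within 1 kb, at 27.1 and 34.9 and at 33.4 and 28.8. The second is shown on its own strand.
chr2:143208138-143208167, minus strand: agccgggtcCCTGCAGTGGGCagcaggggg

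The remaining clusters are pairs. PCDH1 and PCDH12, both on the minus strand of chromosome 2, are 49.6 kb apart, just inside the limit of 50 kb, while beta-1 is 54.2 and 56.1 kb from its neighbours and stayed outside. At PCDH1, a protocadherin of airway epithelium and other tissues, H3K4me3 was 45.4 and 18.5, H3K27ac 6.35 and 11.9, and CTCF 40.4 and 43.4. PCDH12, known from endothelial cells, had no peak at its start in any library. PCDH15, which forms the tip links of inner ear hair cells, had CTCF at 11.2 and 17.6 and H3K4me3 in replicate 2 alone, at 3.25, and the overlapping gene LOC110256792 (protocadherin-15-like) had none.

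CpG content was higher at the single genes than at the clustered genes, which were close to all genes. In the 1 kb around the gene start the observed over expected ratio of CpG had a median of 0.708 for single genes, 0.513 for clustered genes and 0.523 for all annotated genes. The window lies at the annotated gene start, which is over 1 kb from 27 of the 39 alpha, beta and gamma start codons.

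Other genes of these pathways were read at the gene start. Of 19 other cadherin genes found by symbol, 15 had H3K4me3, 11 had H3K27ac and 3 had CTCF in both replicates, and 4 had H3K4me3 with no H3K27ac. CDH11, the cadherin typical of mesenchyme, had H3K27ac at 32.8 and 39.2, and CDH2 (N-cadherin) had 7.76 and 7.58. Of 12 genes for proteins that bind or silence protocadherin promoters, 11 had both histone marks, among them RAD21 and SMC3, which encode cohesin subunits, and SMCHD1, a repressor of clustered protocadherins. The 12th was CTCF itself, with no peak within 1 kb of its annotated start. Of 11 genes for proteins that act on the cytoplasmic side, such as the WAVE complex, all 11 had H3K4me3 and 10 had H3K27ac. These counts stand beside 55.4% of all genes for H3K4me3, 50.1% for H3K27ac, 15.2% for CTCF and 6.89% for H3K4me3 with no H3K27ac. They are given as a description.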

How the data were processed

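Per the labels, H3K4me3, H3K27ac and CTCF ChIP-seq was carried out in PEFs, with 2 replicates of each. The authors aligned with Bowtie2, discarded multi-mapping and duplicate fragments and ran MACS2 on each library for narrow peaks (versions not given in the sources used here). The deposited lists give a fold enrichment (a ratio over control), p-values and q-values as −log10, and an integer score, which was not used. They were used as deposited, including peaks with a q-value above the 0.01 of the methods. The lists hold no reads per peak, so the depth behind a value is unknown, and the inputs were not analysed here. Whether the replicates came from separate cultures is not given in the sources used here.

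Genes, transcripts and sequence came from RefSeq Sscrofa11.1 (annotation release 106), the build of the processing notes. Peaks were assigned to positions with Python 3.11.15, pandas 2.3.3 and pysam 0.24.0. Overlap, clustering and motif code was tested on simulated data. The members and lists were chosen with earlier results of these data known. Named genes were all single genes, clustered genes with a histone mark at the start in both replicates, and the first and last gene of each cluster. Other genes and sites were named after their values were seen.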

Additional observations from a re-analysis of the deposited data

How the results depend on the processing

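Of 90 recomputed values, 71 stayed close to the reported count or within the SD between replicates, and 5 of these 71 are strand shares with an SD of 70.7 percentage points. Within 5 kb of the start in place of 1 kb, 30 clustered genes had H3K4me3, 11 H3K27ac and 34 CTCF, and 7 single genes had CTCF, while of the transcript starts 33, 12 and 37 had the 3 marks, against 13, 6 and 18 within 1 kb. By construction the start codon, an alternative added after the data were seen, counts peaks that the gene start misses: 27 clustered genes had H3K4me3 and 31 CTCF. With a −log10 q of at least 5, 1 single gene kept CTCF, and the clusters had 30.7 H3K4me3 and 12.8 H3K27ac peaks per Mb. With a gap of 100 kb, beta-1 and the region around it joined the clusters (40 genes), which then had 32.2 H3K4me3, 14.0 H3K27ac and 32.5 CTCF peaks per Mb. The motif core was in 0% of CTCF peaks of the beta-gamma cluster that overlapped the other replicate and in 1.56% within 50 bp of the summit. The weight matrix was in 10.9% and the box, added after the data were seen, in 87.5%.

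With 1 replicate left out, clustered genes with H3K4me3 numbered 12 to 14, with H3K27ac 5 to 6 and with CTCF 17 in both cases, single genes with H3K27ac 5 to 6, peaks per Mb 34.0 to 35.3, 14.4 to 15.7 and 34.0 to 34.7 for H3K4me3, H3K27ac and CTCF, and CTCF spacing was 5.08 to 5.09 kb. The share of cores on the gene strand was 50% and rested on 1 peak in each replicate: it was 0% without replicate 1, 100% without replicate 2, 70.8% by the matrix and 100% by the box. Within 50 bp it could not be computed, since 1 replicate had no core. The lists give peaks and not reads, so an absent peak shows only that none was called. No paired analysis was possible because no result comes from a test.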
